A study of Mus musculus with 12 samples.

Results

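The epidermis of mice labelled as double knockout (DKO) for the vitamin D receptor gene Vdr and the Mediator subunit gene Med1 was compared with control epidermis at 6 months of age. The genes described were those with at least 1 FPKM (fragments scaled by gene length and library total) in at least 3 of the 6 libraries of that age. This left 12594 of the 19477 genes that had values anywhere in the series, and 12660 passed the same rule at postnatal day 36 (P36). The series holds 12 libraries, 3 per genotype at each of the 2 ages. All groups were dorsal epidermis of C57BL/6 mice that carried floxed alleles of both genes (VDR fl/fl, Med1 fl/fl). The control mice had no Cre transgene (K14 Cre-/-), and the DKO mice had one (K14 Cre+/-) driven by the promoter of keratin 14, a gene of basal keratinocytes whose activity also marks the cells that descend from them. Immune, nerve and dermal cells in the sample are not targets of that promoter. The labels do not say that the libraries of a group came from separate animals, so the p-values measure the spread between these libraries.

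The vitamin D receptor is a nuclear receptor that binds DNA together with a retinoid X receptor and recruits coactivators, among them the Mediator complex through its subunit Med1. In skin it is known for the differentiation of keratinocytes, for the lipid barrier of the cornified layer and for the regrowth of hair after the first coat. The interfollicular epidermis is renewed from basal cells that are anchored to the basement membrane. These cells pass through the spinous and granular layers and end as corneocytes with a cross-linked protein envelope, while the hair follicle holds its own stem cells and the sebaceous gland opens into its upper part.

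The depth of the libraries is unknown, since FPKM values do not keep it, and no counting interval can be given. Each library summed to between 446617 and 529023 FPKM over the table and had between 12056 and 12691 genes at 1 FPKM or more. The first principal component held 72.2% of the variance and separated the genotypes. The second, with 11.3%, set control replicate 1 apart. In that library 143 genes were at least 1 higher on the log2(FPKM + 1) scale than in both other controls, and immediate early genes such as Fosb and Nr4a1 led them. The library labelled DKO replicate 3 stood above both others of its group in 258 genes, led by skeletal muscle genes. The summed level of 20 skeletal muscle markers was 187 FPKM there, against 22.9 and 12.5 FPKM in the other libraries labelled DKO and 13.0 to 82.3 FPKM in control. The summed level of 7 keratinocyte markers ran from 11291 to 17761 FPKM in control and from 8524 to 11359 FPKM in the libraries labelled DKO, so the labelled tissue was present in every library.

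The targeted genes were examined first. Vdr was at 53.5, 31.4 and 36.7 FPKM in the control libraries and at 49.3, 42.1 and 52.9 FPKM in those labelled DKO. The groups overlapped, and Vdr was not called (log2 fold change 0.27, SE 0.20, limma adjusted p = 0.302). Without control replicate 1 it was called higher (0.49, limma adjusted p = 0.0304). Med1 was at 16.7, 13.1 and 12.7 FPKM in control and at 11.6, 11.4 and 11.9 FPKM in the libraries labelled DKO. The Med1 groups did not overlap, but the difference did not pass (−0.26, SE 0.12, limma adjusted p = 0.13). It passed with totals taken without keratin and cornified envelope genes (−0.42, limma adjusted p = 0.0424) and after centring by transcript GC content (−0.45, limma adjusted p = 0.0266). An FPKM value covers a whole gene and cannot show a missing exon. Because Vdr was not lower, the group is called the libraries labelled DKO, and every direction below rests on that label.

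Of 12594 genes, 5207 (41.3%) were called at a limma adjusted p below 0.05. These were 2918 genes called higher (23.2%) and 2289 called lower (18.2%) in the libraries labelled DKO. By 1 or more on the log2 scale, 567 genes (4.50%) were higher and 732 (5.81%) lower. In 7016 genes (55.7%) the 3 values of one genotype did not overlap those of the other. The median log2 fold change of all genes was 0.04, and these shares are the background for every count of a list below. Higher genes made up 56.0% of calls. With totals taken without keratin and cornified envelope genes they made up 38.3% (1981 higher and 3198 lower), and the median of all genes was then −0.11. No gene called both here and under an alternative changed sign between them. All fold changes are differences on the log2(FPKM + 1) scale, where changes of weakly expressed genes come out too small.

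Among the largest rises were stefins, a gasdermin, a chitinase-like protein, a serpin and an aldehyde oxidase. Stfa3, a stefin that inhibits cysteine proteases, had 10.2, 23.7 and 4.83 FPKM in control and 813, 1478 and 966 FPKM in the libraries labelled DKO. Gsdmc, a gasdermin, had 0.63, 0.22 and 0.32 FPKM in control and 61.2, 75.2 and 28.6 FPKM in the libraries labelled DKO (log2 fold change 5.24, SE 0.33, limma adjusted p = 0.000168). Its lowest value of the second group was that of replicate 3, and it was still far above every control. Chil1, a chitinase-like protein, went from 5.71, 5.59 and 2.35 to 272, 204 and 78.5 FPKM (4.96, SE 0.48). The serpin Serpinb3a, a protease inhibitor of stressed squamous epithelium, went from 0.73, 1.68 and 1.38 to 82.8, 114 and 36.2 FPKM (4.997, SE 0.40). Lcn2, a siderophore-binding protein, had 4.24, 2.66 and 4.88 FPKM in control and 119, 61.8 and 63.9 FPKM in the libraries labelled DKO (4.03, SE 0.29). S100a8, a subunit of calprotectin, had 9.73, 5.94 and 4.45 and 111, 255 and 61.5 FPKM (4.04, SE 0.49). Aox4, an aldehyde oxidase that can act on retinaldehyde, went from 0.74, 0.68 and 0.71 to 32.7, 34.3 and 20.9 FPKM (4.12, SE 0.19). Genes of largest change were chosen among those whose groups do not overlap, so the separation of the groups is part of the choice. In Gsdmc, Chil1, Serpinb3a and Aox4 replicate 3 was the lowest of its group.

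Among the largest falls were keratins of the follicle, growth factors, receptors and a claudin. Ifitm6, an interferon-induced transmembrane protein, had 199, 152 and 154 FPKM in control and 0.49, 0.62 and 0.25 FPKM in the libraries labelled DKO. Wfdc3, which codes for a secreted protein with whey acidic protein domains, had 88.2, 94.2 and 63.5 and 0.32, 0.08 and 0.73 FPKM (log2 fold change −5.92, SE 0.22, limma adjusted p = 3.5e-05). Both genes were at or below 0.73 FPKM in every library labelled DKO. Krt75, the keratin of the companion layer, went from 61.9, 42.5 and 41.4 to 0.29, 0.35 and 2.1 FPKM (−4.80, SE 0.35). Krt24 went from 13.3, 15.3 and 18.6 to 0.15, 0.42 and 0.19 FPKM (−3.73, SE 0.16). Lhx2, a transcription factor of follicle stem cells, went from 46.2, 23.9 and 32.4 to 1.66, 1.36 and 3.84 FPKM (−3.44, SE 0.32). In Krt75 and Lhx2 the library labelled DKO replicate 3 was the highest of its group, as it was for the muscle markers. Il31ra, a receptor chain for interleukin 31, had 26.2, 23.9 and 20.8 FPKM in control and 0.77, 0.4 and 0.52 FPKM in the libraries labelled DKO (−3.98, SE 0.14). The claudin Cldn3, a tight junction protein, had 22.3, 19.0 and 16.9 and 0.41, 0.36 and 0.36 FPKM (−3.88, SE 0.13). The transglutaminase Tgm7 had 12.6, 10.2 and 17.4 and 0.53, 0.39 and 0.15 FPKM (−3.38, SE 0.21). Gpha2, a glycoprotein hormone subunit, had 14.3, 6.59 and 13.3 FPKM in control and 0, 0.21 and 0.65 FPKM in the libraries labelled DKO, the first of which is listed at 0.

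**Figure D1:**
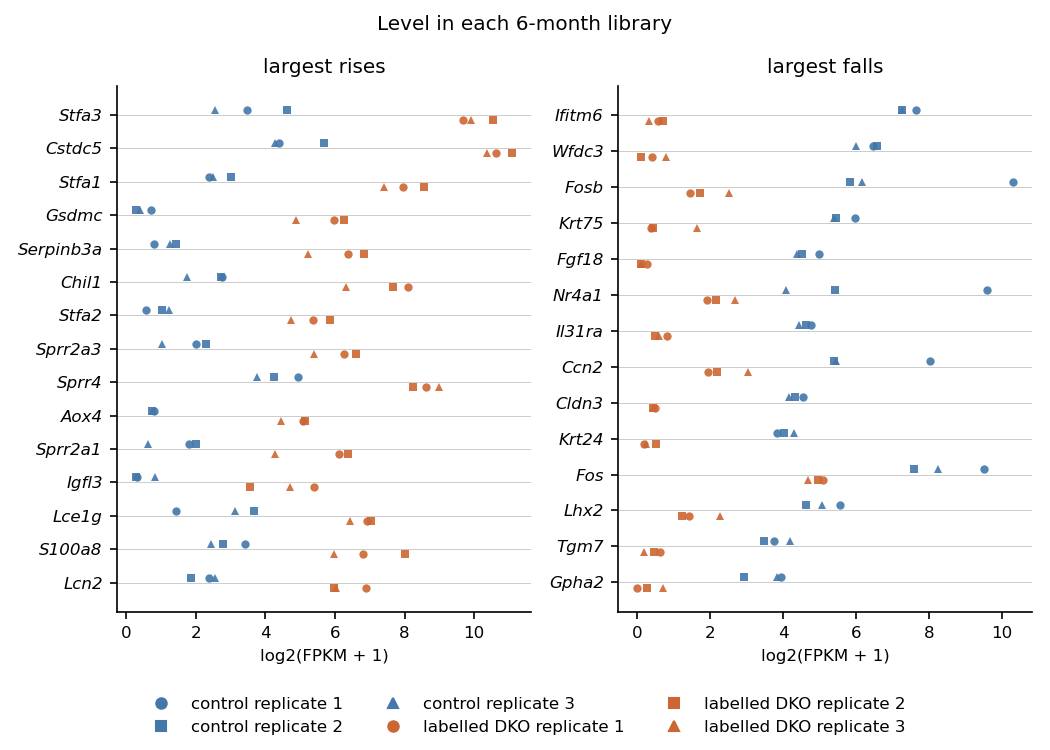
Level of genes with the largest called rise (left) and fall (right) in each 6-month library, as log2(FPKM + 1) on the horizontal axis. Blue points are the 3 controls and orange points the 3 libraries labelled DKO, with a symbol per replicate. Only genes whose groups do not overlap were chosen for display. Fosb, Nr4a1 and Ccn2 show control replicate 1 far to the right of the other controls.

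Most cornified envelope genes rose, but loricrin fell. Of 42 cornified envelope genes tested, 26 were higher and 5 lower (median log2 fold change 1.25). Without the library labelled DKO replicate 2, 17 were higher. The risers were mostly genes of the small proline-rich and late cornified envelope families: Sprr4 had 29.9, 18.1 and 12.7 FPKM in control and 389, 299.6 and 507 FPKM in the libraries labelled DKO. Lce1g had 1.69, 11.7 and 7.73 and 119, 131 and 85.5 FPKM (4.06, SE 0.53), with control replicate 1 the lowest control. Sprr2a1 went from 2.52, 2.99 and 0.53 to 68.1, 81.4 and 18.4 FPKM. Sprr2a1 and its neighbour Sprr2a3 belong to near-identical copies among which reads can be split, so their single values are uncertain. Loricrin (Lor), the main protein of the envelope, fell from 1423, 3036 and 2864 to 893, 485 and 603 FPKM (−1.85, SE 0.34, limma adjusted p = 0.00514). Flg2, a filaggrin-like protein, and Krt80 fell with it, Krt80 from 583, 628 and 592 to 242, 186 and 184 FPKM (−1.57, SE 0.13).

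Of 23 spinous keratins and desmosome genes, 11 were lower and 3 higher (median −0.40). Krt10, the keratin of the suprabasal layers and the called gene with the highest mean in control, went from 4602, 7073 and 5524 to 3243, 2418 and 2269 FPKM (−1.11, SE 0.21, limma adjusted p = 0.00617). The suprabasal secreted protein Sbsn went from 3032, 3848 and 3539.8 to 1930.5, 2138 and 1599 FPKM (−0.88, SE 0.16). Cdsn, the corneodesmosin that glues corneocytes together, went from 619.8, 669 and 567 to 300.2, 221 and 196 FPKM (−1.39, SE 0.17). Against most of the list, the desmosomal cadherins Dsc2 (3.22, 2.45 and 3.04 against 11.9, 14.2 and 17.3 FPKM, 1.97, SE 0.16) and Dsg1b (23.5, 32.6 and 28.2 against 66.0, 71.3 and 53.3 FPKM, 1.15, SE 0.16) rose. Krt1, the partner keratin of Krt10, also rose, from 679, 1445 and 1042 to 2567, 1741 and 1741 FPKM (0.98, SE 0.29, limma adjusted p = 0.0322). The call of Krt1 was lost without control replicate 1 or 3, without the library labelled DKO replicate 1 or 2, with no filter on low values and with totals taken without keratin and cornified envelope genes (limma adjusted p up to 0.104). Krtdap, a secreted protein of differentiating keratinocytes, had a higher mean in control than Krt10 and was not called (5758, 7061 and 6336 against 5832, 6554 and 4821 FPKM, −0.16, limma adjusted p = 0.476). Krt1 and Krtdap, and below Krt14, Dcn and Postn, are named here after their values were seen.

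Of 10 stefins and cystatins, 9 were higher and 0 lower (median 2.50). Cstb, which is found in most cells, rose from 164, 175 and 145 to 845, 888 and 978 FPKM (2.48, SE 0.11, limma adjusted p = 6.93e-05). The stefin A relatives Stfa1 (4.21, 7.14 and 4.59 against 246, 377 and 170.2 FPKM) and Stfa2 (0.48, 1.06 and 1.36 against 40.5, 56.9 and 25.9 FPKM) rose by 5.35 and 4.38. Cstdc5 went from 20.1, 50.6 and 18.5 to 1578, 2185 and 1325 FPKM, and the highest control was replicate 2, as for Stfa3. Stefin A genes are close copies of each other, so the share of each is uncertain. Of 28 serine proteases and inhibitors of the cornified layer, 16 were higher and 5 lower (median 0.65), and 3 were lower without control replicate 2. Klk13, a kallikrein, rose from 1.12, 1.59 and 1.12 to 30.9, 26.8 and 19.0 FPKM (3.52, SE 0.19), Tmprss11e from 0.86, 0.3 and 0.5 to 13.4, 14 and 16.5 FPKM (3.34, SE 0.17) and the inhibitor Slpi from 1.87, 1.91 and 2.19 to 25.2, 17.7 and 21.6 FPKM (2.90, SE 0.15). Klk5, a kallikrein that cleaves corneodesmosomes, fell from 169, 247 and 238 to 119.8, 124 and 111 FPKM (−0.86, SE 0.15), and the serpin Serpina12 fell from 87.2, 135 and 122 to 39.0, 46.6 and 49.9 FPKM (−1.31, SE 0.18).

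Promoters of 4 genes of these and the next groups are shown because they hold a motif match. The share of stefin promoters with a match was not counted. They are RefSeq sequences of GRCm38.p6, 250 bases before to 50 after the start, with the motif in capitals. The pattern used for the AP-1 motif, TGANTCA, allows any middle base. It is looser than the usual site TGA(G/C)TCA, which was not counted alone, and reads the same on both strands. It was in 7.81% of 32851 promoters of this length and in 6.85% of the 10074 tested genes that had one. It was in 13 of 38 cornified envelope genes with a promoter (34.2%), of which 10 were called higher and 2 lower. It was in 13.4% of genes higher by 1 or more and in 8.47% of genes lower by 1 or more. The pattern was in 0 of 24 AP-1 and immediate early genes and in 1 of 10 vitamin D pathway genes. Of 65 respiratory chain and ATP synthase genes 7 held it (10.8%), all 7 called higher, on a list with 81.6% called higher. The cyclic AMP response element TGACGTCA, also its own reverse complement, was in 1.79% of all promoters and 3.48% of tested genes. Of 24 AP-1 and immediate early genes 3 held that element, of which 1 was called lower. So did 0 of 38 cornified envelope genes and 4 of 65 respiratory chain and ATP synthase genes, of which 2 were called higher. A vitamin D response element of the DR3 type was in 13 of the 32851 promoters and in 2 of the tested genes. A match is only a match of letters. Stfa3 (chr16:36455343-36455642, minus strand), Lor (chr3:92083093-92083392, minus strand) and Flg2 (chr3:93197023-93197322, plus strand) hold the pattern TGANTCA, the first in a gene that rose and the others in genes that fell. The match reads TGAGTCA in Stfa3 and Lor and TGAATCA in Flg2. It begins 29 bases after the start in Stfa3, and 48 and 69 bases before it in Lor and Flg2. Dusp1 (chr17:26508423-26508722, minus strand) holds the cyclic AMP response element.
Stfa3: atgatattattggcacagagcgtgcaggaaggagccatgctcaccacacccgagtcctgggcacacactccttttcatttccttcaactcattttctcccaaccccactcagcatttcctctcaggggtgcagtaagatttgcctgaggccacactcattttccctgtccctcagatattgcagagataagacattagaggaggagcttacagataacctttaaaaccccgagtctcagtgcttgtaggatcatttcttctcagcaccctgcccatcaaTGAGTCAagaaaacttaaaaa
Lor: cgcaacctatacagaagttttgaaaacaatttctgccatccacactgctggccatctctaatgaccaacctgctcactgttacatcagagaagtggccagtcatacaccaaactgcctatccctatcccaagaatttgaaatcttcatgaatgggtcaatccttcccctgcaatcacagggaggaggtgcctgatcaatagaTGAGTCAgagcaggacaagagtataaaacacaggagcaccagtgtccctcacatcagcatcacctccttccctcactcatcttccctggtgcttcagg
Flg2: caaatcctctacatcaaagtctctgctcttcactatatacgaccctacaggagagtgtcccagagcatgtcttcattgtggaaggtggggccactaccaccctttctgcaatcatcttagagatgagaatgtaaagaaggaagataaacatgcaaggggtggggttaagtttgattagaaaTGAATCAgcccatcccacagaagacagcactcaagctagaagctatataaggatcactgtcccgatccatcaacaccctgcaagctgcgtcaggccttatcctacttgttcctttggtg
Dusp1: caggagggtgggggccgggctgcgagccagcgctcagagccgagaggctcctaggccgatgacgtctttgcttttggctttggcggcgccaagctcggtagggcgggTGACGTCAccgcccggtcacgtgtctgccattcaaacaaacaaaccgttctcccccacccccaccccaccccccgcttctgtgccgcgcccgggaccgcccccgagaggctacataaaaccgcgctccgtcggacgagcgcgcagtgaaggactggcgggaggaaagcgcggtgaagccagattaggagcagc

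Most basal cell genes fell. Of 20 basal keratinocyte genes, 13 were lower and 1 higher (median −0.71). The list also holds Dcn and Postn, matrix genes that fibroblasts make. Neither was called, but both were called lower without the library labelled DKO replicate 3 (limma adjusted p = 0.0335 and 0.00712), and Dcn also after centring by GC content (0.0489). Bcam, a receptor for laminin, went from 118, 136 and 125 to 38.3, 26.6 and 39.5 FPKM (−1.85, SE 0.16, limma adjusted p = 0.000382). Lamb3, a chain of laminin 332 in the basement membrane, went from 45.9, 52.3 and 45.0 to 18.0, 10.8 and 15.7 FPKM (−1.65, SE 0.18). Krt5, the keratin of basal cells, fell from 2426, 3185 and 2726 to 1463, 1068 and 1342 FPKM (−1.11, SE 0.17), and Col17a1, a hemidesmosome collagen, from 399, 404 and 360.1 to 158, 87.2 and 119.5 FPKM. In Bcam, Lamb3, Krt5 and Col17a1 the library labelled DKO replicate 2 was the lowest. Krt14, the basal keratin whose promoter drives the Cre, was not called (1422, 2345 and 1943 against 2676, 2385 and 2767 FPKM, 0.48, SE 0.20, limma adjusted p = 0.0858). It was called higher without control replicate 2 (limma adjusted p = 0.0461) and after centring by GC content (0.0215). Cd44, a receptor for hyaluronan, rose from 70.8, 64.4 and 51.6 to 81.7, 92.9 and 103 FPKM (0.57, SE 0.14), but was not called without control replicate 3 (limma adjusted p = 0.0501), without the library labelled DKO replicate 2 (0.0562), with totals taken without keratin and cornified envelope genes (0.0753) or after centring by GC content (0.0586). In bulk tissue, fewer cells of a type and less RNA per cell cannot be told apart.

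Follicle genes split between the upper follicle with its gland and the rest. Of 30 genes of follicle stem cells and the outer root sheath, 14 were lower and 5 higher (median −0.83), and 20 were lower without the library labelled DKO replicate 3 (median −1.25). Krt15, a keratin of the bulge, was at 1658, 1585 and 1689 FPKM in control and at 196, 163 and 182 FPKM in the libraries labelled DKO. Fgf18, a growth factor of resting follicles, had 30.6, 22.1 and 20.02 and 0.21, 0.08 and 0.08 FPKM. Krt17, a keratin of follicle sheaths and of stressed epidermis, rose instead, from 747, 738 and 656 to 1559, 1035 and 1807 FPKM (1.00, SE 0.21). The number of higher members was 3 with totals taken without keratin and cornified envelope genes, without control replicate 2 or 3, and without the library labelled DKO replicate 1 or 3. Of 32 hair matrix and hair shaft genes only 14 reached the level to be tested, of which 6 were lower and 1 higher (median −0.65). With no filter on low values the median of 31 was 0.06. Lef1, a partner of beta-catenin, fell from 3.92, 1.81 and 3.25 to 0.16, 0.14 and 0.34 FPKM (−1.68, SE 0.23), while Padi4, an enzyme that turns arginine into citrulline, rose from 0.7, 0.66 and 0.7 to 5.98, 4.98 and 9.90 FPKM (2.19, SE 0.22).

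Of 22 sebaceous gland genes, 18 were higher and 0 lower (median 1.52), and of 16 genes of the infundibulum and upper follicle 10 were higher and 0 lower (median 1.28). Dgat2l6, an acyltransferase of sebum lipid synthesis, rose from 8.02, 4.63 and 10.1 to 69.7, 55.4 and 63.8 FPKM (2.95, SE 0.24, limma adjusted p = 0.000306). Elovl3, a fatty acid elongase of the gland, rose from 9.66, 12.2 and 13.7 to 119, 110.1 and 62.7 FPKM (2.89, SE 0.25). Fabp5, the epidermal fatty acid binding protein, rose from 245, 258 and 299 to 1129, 1376 and 1052 FPKM (2.14, SE 0.14). Pparg, a nuclear receptor of sebocytes and adipocytes, rose from 8.09, 4.82 and 7.74 to 24.6, 39.1 and 30.1 FPKM (2.04, SE 0.22). Defb6, a beta-defensin and one of the most abundant transcripts of the libraries labelled DKO, rose from 1028, 563 and 561 to 3848, 3572 and 3180.2 FPKM (2.36, SE 0.25), and control replicate 1 was the highest control. The summed level of adipocyte markers, a list that shares Pparg, ran from 137 to 713 FPKM in control and from 215 to 648 FPKM in the libraries labelled DKO, so those ranges overlapped.

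Barrier lipid genes were divided. Of 39 ceramide and lamellar lipid genes, 15 were higher and 6 lower (median 0.28), and 3 were lower without control replicate 2. Cers4, a ceramide synthase, rose from 27.1, 23.7 and 30.1 to 115, 125 and 92.7 FPKM (2.00, SE 0.14). Degs2, which makes phytoceramides, rose from 0.74, 0.36 and 0.52 to 8.08, 4.44 and 6.64 FPKM (2.24, SE 0.21). Elovl1, an elongase of very long fatty acids, fell from 332, 516 and 454 to 257, 269 and 218 FPKM (−0.79, SE 0.18). Of 26 cholesterol genes, 11 were higher and 1 lower (median 0.55). Acat2, an early enzyme of the pathway, rose from 17.3, 20.8 and 19.8 to 56.5, 61.2 and 43.4 FPKM (1.42, SE 0.15), and Hsd17b7 from 17.8, 13.2 and 12.3 to 37.0, 39.7 and 33.6 FPKM (1.31, SE 0.15), whereas Srebf2, the transcription factor that drives the pathway, fell from 65.9, 55.0 and 47.1 to 37.0, 26.8 and 34.3 FPKM (−0.76, SE 0.16). Srebf2 was not called after centring by GC content (limma adjusted p = 0.0551). Of 21 genes that make fatty acids and glycerolipids, 5 were higher (23.8%) and 4 lower (19.05%). These shares were close to those of all genes (23.2% and 18.2%). The median was −0.15, from −0.38 without the library labelled DKO replicate 3 to −0.01 without replicate 2. Without control replicate 2 or 3, 2 were lower. Dgat2, the last enzyme of triglyceride synthesis, fell from 169.7, 246 and 225 to 133, 115 and 102 FPKM (−0.86, SE 0.17), and its unrelated counterpart Dgat1 rose from 16.0, 16.1 and 21.5 to 43.7, 39.2 and 34.0 FPKM (1.09, SE 0.15).

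Retinoid genes changed in both directions. Of 24 genes of retinoid metabolism and response, 14 were higher and 5 lower (median 0.86). The number lower was 3 without control replicate 1 or 3 and without the library labelled DKO replicate 1 or 2. Lrat, the enzyme that stores retinol as an ester, rose from 0.69, 0.61 and 0.53 to 14.7, 12.3 and 12.8 FPKM (3.15, SE 0.12, limma adjusted p = 4.03e-05). The retinol-binding protein Rbp2 rose from 11.7, 10.7 and 7.37 to 122, 124 and 96.9 FPKM (3.42, SE 0.18). Crabp2, which carries retinoic acid to its receptors, rose from 114, 131 and 129.7 to 407, 375 and 415 FPKM (1.67, SE 0.10). Cyp26b1, which breaks retinoic acid down, fell from 45.8, 44.9 and 53.0 to 5.39, 3.56 and 7.68 FPKM (−2.95, SE 0.22, limma adjusted p = 0.000242), and the receptor Rarg fell from 149, 172 and 181 to 99.1, 75.0 and 91.8 FPKM (−0.91, SE 0.13). The groups did not overlap in 18 of the 24 genes, against 55.7% of all genes tested, and the 5 named here were chosen among the called genes.

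Of 15 genes of the vitamin D pathway (the receptor, its partners, and the enzymes and targets of the hormone), 4 were lower and 1 higher (median −0.06, and −0.15 without control replicate 3). The partner receptors Rxra (83.3, 79.9 and 78.8 against 48.7, 39.4 and 43.7 FPKM, −0.87, SE 0.10) and Rxrg (1.59, 2.08 and 2.34 against 0.32, 0.46 and 0.58 FPKM, −1.04, SE 0.16) fell. The calcium channel gene Trpv6 fell from 5.73, 5.36 and 5.64 to 3.33, 2.81 and 3.45 FPKM (−0.65, SE 0.12). Snw1, a coactivator and splicing factor, rose from 34.8, 36.9 and 37.5 to 51.0, 57.5 and 49.1 FPKM (0.52, SE 0.10). Of 23 other nuclear receptors 6 were lower and 1, Pparg, was higher (median −0.11, from −0.32 without the library labelled DKO replicate 3 to −0.05 without control replicate 3). Thra, a thyroid hormone receptor, fell from 48.3, 43.5 and 48.9 to 16.9, 15.7 and 20.5 FPKM (−1.36, SE 0.12), and Nr3c1, the glucocorticoid receptor, from 33.1, 29.6 and 32.2 to 18.6, 22.4 and 22.8 FPKM (−0.56, SE 0.11).

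Signalling genes of the follicle fell more often than they rose. Of 55 Wnt pathway genes, 33 were lower and 6 higher (median −0.81). The ligands Wnt7b (45.0, 61.9 and 54.1 against 14.8, 13.02 and 10.1 FPKM, −2.01, SE 0.17) and Wnt6 (3.56, 4.13 and 4.32 against 0.52, 0.53 and 0.84 FPKM, −1.62, SE 0.14) fell. The feedback inhibitor Nkd2, a target of the pathway, fell from 18.4, 11.7 and 17.0 to 1.44, 1.11 and 2.57 FPKM (−2.64, SE 0.24, limma adjusted p = 0.000461). The secreted antagonist Sostdc1 rose from 25.7, 32.3 and 29.9 to 74.9, 69.6 and 102 FPKM (1.44, SE 0.16), and so did Porcn, which attaches the lipid that Wnt proteins need for secretion, from 5.64, 6.73 and 6.29 to 16.9, 12.7 and 20.2 FPKM (1.26, SE 0.17). Of 46 Bmp and Tgfb pathway genes, 19 were lower and 3 higher (median −0.41). The ligand Bmp2 fell from 25.1, 15.1 and 19.7 to 2.48, 2.57 and 2.29 FPKM (−2.58, SE 0.18), the antagonist Grem1 from 19.4, 17.1 and 17.2 to 2.83, 2.98 and 2.42 FPKM (−2.33, SE 0.11) and the matrix protein Tgfbi, a target of Tgfb, from 192, 188 and 216 to 69.3, 50.3 and 66.8 FPKM (−1.67, SE 0.14). Inhbb, a subunit of activin, rose from 2.80, 3.16 and 3.39 to 9.73, 6.57 and 13.9 FPKM (1.38, SE 0.24).

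Of 23 Notch pathway genes, 10 were lower and 1 higher (median −0.43), but only 3 were lower without control replicate 2 and 6 after centring by transcript GC content. The target Hey1 fell from 1.79, 3.28 and 2.88 to 0.57, 0.61 and 0.99 FPKM (−1.07, SE 0.20). Adam10, a protease that cuts the receptor, rose from 25.4, 25.3 and 28.3 to 33.2, 36.8 and 36.0 FPKM (0.41, SE 0.09), but was not called with totals taken without keratin and cornified envelope genes (limma adjusted p = 0.0522). Of 11 Hedgehog genes, 8 were lower and 0 higher (median −0.82), and 5 were lower without the library labelled DKO replicate 2 (median −0.54). The receptor Ptch1, itself a target, fell from 6.56, 4.97 and 6.29 to 3.13, 2.44 and 3.07 FPKM (−0.84, SE 0.14), the coreceptor Cdon from 7.64, 5.53 and 5.84 to 2.53, 2.74 and 3.49 FPKM (−0.90, SE 0.16) and Disp1, which releases the ligand, from 3.51, 2.63 and 2.57 to 0.85, 0.55 and 0.95 FPKM (−1.13, SE 0.16).

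**Figure D2:**
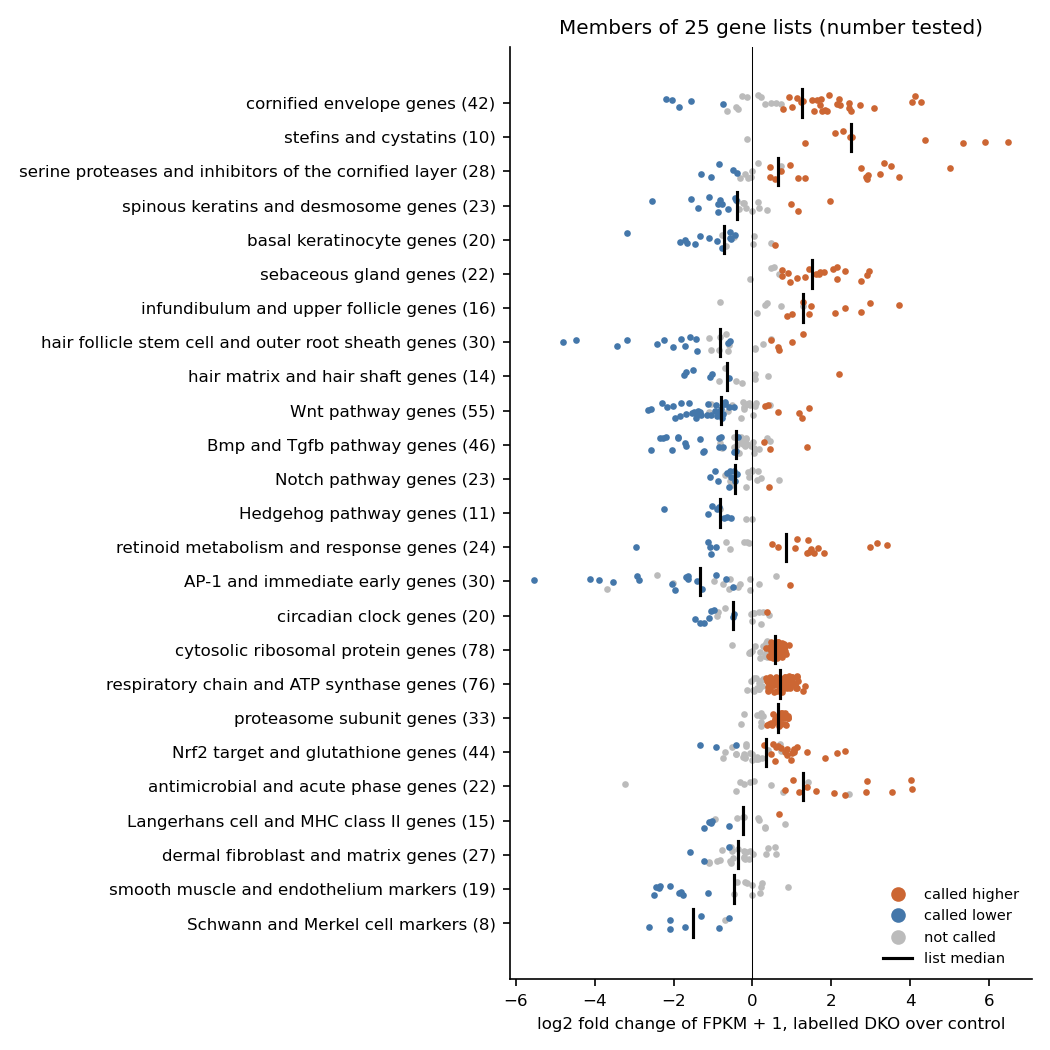
Log2 fold change at 6 months (libraries labelled DKO over control, horizontal axis) of every tested member of 25 lists. Each point is a gene, orange if called higher, blue if called lower and grey if not called, and black bars are list medians. Stefins and cystatins (median 2.50) lie farthest to the right and Schwann and Merkel cell markers (median −1.51) farthest to the left, while the ribosomal, respiratory and proteasome lists form narrow clouds right of 0.

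Immediate early genes, which cells transcribe within minutes of a stimulus, were lower. Of 30 AP-1 and immediate early genes, 16 were lower and 1 higher (median −1.33). Fos, a subunit of AP-1, had 737, 193 and 304 FPKM in control and 33.5, 30.4 and 24.9 FPKM in the libraries labelled DKO (−3.53, SE 0.44, limma adjusted p = 0.00131). Fosb had 1274, 55.7 and 71.0 and 1.74, 2.33 and 4.70 FPKM (−5.54, SE 1.10), the orphan receptor gene Nr4a1 had 769.8, 42.1 and 16.1 and 2.79, 3.47 and 5.42 FPKM (−4.12, SE 1.25), and Ccn2, a matrix protein that responds to stretch and to Yap, had 259.8, 41.0 and 42.9 and 2.82, 3.59 and 7.28 FPKM (−3.90, SE 0.70). Control replicate 1 was the highest library of all in these 4 genes. The other controls were also above every library labelled DKO, which the rule for the largest falls requires. Without control replicate 1 the log2 fold change of Fosb was −4.10, that of Nr4a1 −2.51, that of Ccn2 −3.03 and that of Fos −3.00, and the limma adjusted p of Nr4a1 was 0.00704. Nr4a1 was not called without the library labelled DKO replicate 1 or 2 (limma adjusted p = 0.093 and 0.103) or with no filter on low values (0.06). Without control replicate 1, 18 genes of the list were lower and 3 higher (median −0.93). Without the library labelled DKO replicate 2, 11 were lower.

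Dusp1, a phosphatase that switches off MAP kinases, fell from 495, 255 and 292 to 49.5, 45.9 and 39.4 FPKM (−2.87, SE 0.24). Jun fell from 138, 78.8 and 120.1 to 35.9, 26.5 and 43.3 FPKM (−1.64, SE 0.25), and Jund from 306, 161 and 179 to 72.8, 55.7 and 70.8 FPKM (−1.63, SE 0.24). Gadd45a, a stress gene, rose from 3.38, 6.96 and 6.41 to 10.9, 10.2 and 12.8 FPKM (0.95, SE 0.23). The suppressor of cytokine signalling Socs3, of the wound and stress list, had 64.9, 27.1 and 32.2 FPKM in control and 18.0, 14.9 and 14.3 FPKM in the libraries labelled DKO (−1.24, SE 0.30). Socs3 was not called without the library labelled DKO replicate 2 (limma adjusted p = 0.0573) or after centring by GC content (0.0624).

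**Figure D3:**
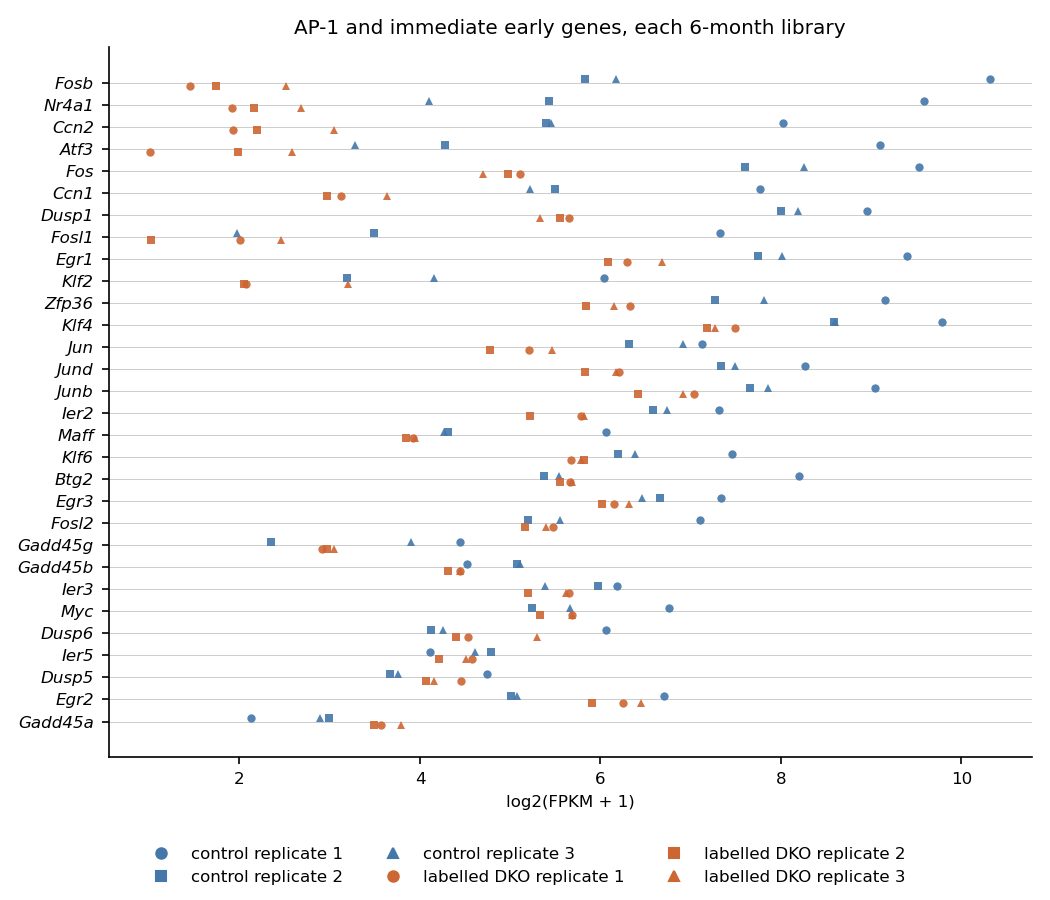
Level of 30 AP-1 and immediate early genes in each 6-month library, as log2(FPKM + 1) on the horizontal axis, ordered by log2 fold change. Blue points are controls and orange points libraries labelled DKO, with a symbol per replicate. Control replicate 1 (blue circles) is the highest library in most genes of the upper part, and the other controls still lie right of the orange points for Fos, Fosb, Dusp1 and Jun.

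Most transcription factors of the keratinocyte were not called (26 of 45). Of the 45, 13 were lower (28.9%, against 18.2% of all genes) and 6 higher (13.3%, against 23.2%), with a median of −0.34. After centring by GC content 17 were lower and 9 higher. With totals taken without keratin and cornified envelope genes, 23 were lower. Tfap2b fell from 32.8, 26.4 and 20.5 to 4.42, 5.11 and 6.14 FPKM (−2.13, SE 0.19) and Klf5 from 109.5, 102 and 106 to 57.1, 45.2 and 49.4 FPKM (−1.06, SE 0.11). The ETS factors Ehf and Elf5 of differentiating epithelium rose, Ehf from 8.87, 8.65 and 10.1 to 73.2, 68.9 and 43.5 FPKM (2.59, SE 0.20, limma adjusted p = 0.000242) and Elf5 from 0.94, 0.95 and 0.81 to 10.3, 10.7 and 6.97 FPKM (2.42, SE 0.17). Of 20 circadian clock genes, 8 were lower and 1 higher (median −0.49). Without control replicate 1, 8 were lower and 3 higher, and the median was −0.14. The clock output gene Dbp fell from 25.8, 22.4 and 19.6 to 8.59, 7.39 and 8.83 FPKM (−1.34, SE 0.13), its relative Hlf from 25.1, 19.99 and 21.8 to 11.7, 8.57 and 9.60 FPKM (−1.09, SE 0.14) and the repressor Nr1d1 from 45.6, 47.1 and 34.5 to 25.4, 16.9 and 17.6 FPKM (−1.06, SE 0.19).

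Most genes of protein synthesis, respiration and protein breakdown rose by small amounts. Of 78 cytosolic ribosomal protein genes, 58 were higher and 0 lower (median 0.58). Of 76 respiratory chain and ATP synthase genes, 62 were higher and 0 lower (median 0.71), and of 33 proteasome subunit genes 25 were higher and 0 lower (median 0.64). Rpl10a, of the large ribosomal subunit, rose from 764, 792 and 877 to 1563, 1613 and 1425 FPKM (0.92, SE 0.11), and Rps26, of the small subunit, from 1466, 1611 and 1822 to 2812, 2875 and 2846 FPKM (0.81, SE 0.13). Cox7b, a subunit of cytochrome oxidase, rose from 50.1, 56.2 and 58.0 to 129, 143 and 128 FPKM (1.27, SE 0.10, limma adjusted p = 0.000255), and the ATP synthase subunit Atp5j from 107, 119 and 122 to 231, 273 and 259 FPKM (1.12, SE 0.10). Psmb3 rose from 103, 112 and 115 to 201, 220.5 and 199 FPKM (0.91, SE 0.09). Ribosomal protein genes have many processed copies in the genome, so the level of a single gene is uncertain.

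Short transcripts and transcripts of low GC content tended to be higher in the libraries labelled DKO. Across the 12532 genes with a transcript length and GC content, Spearman's rho between GC content and log2 fold change was −0.39 at 6 months and −0.04 at P36. The points are genes of the same 6 libraries and not independent. In the tenth of genes with the lowest GC content 549 were higher and 52 lower, and in the tenth with the highest 79 were higher and 437 lower. All 3 libraries labelled DKO showed this slope, most steeply replicate 2. After centring each library within bins of GC content, 2386 genes (19.0%) were higher and 2303 (18.4%) lower. The ribosomal list then had 58 members higher, the respiratory list 67 and the proteasome list 23. Centring by length, an alternative also added after the data were seen, left 45, 57 and 23 higher.

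**Figure D4:**
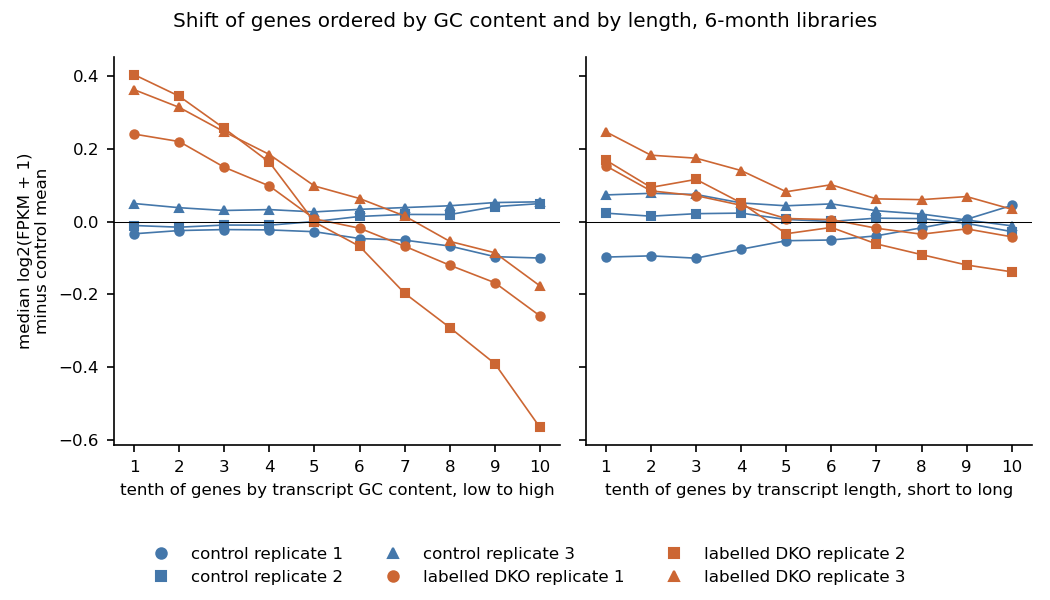
Median log2(FPKM + 1) of each 6-month library minus the mean of the controls, for 10 groups of tested genes of equal size, ordered by transcript GC content (left) and transcript length (right). Lines are libraries, blue for control and orange for those labelled DKO. At low GC content the 3 libraries labelled DKO lie between 0.24 and 0.40 above the controls' mean, and at high GC content between −0.18 and −0.57 from it, while each control stays between −0.10 and 0.05.

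Protective and stress genes were mixed. Of 44 targets of the antioxidant factor Nrf2 and glutathione genes, 20 were higher and 3 lower (median 0.34). Prdx1, a peroxiredoxin, rose from 177, 188 and 174 to 345, 394 and 381 FPKM (1.05, SE 0.10) and thioredoxin (Txn1) from 58.4, 74.6 and 64.1 to 123, 145 and 146 FPKM (1.06, SE 0.12). Hmox1, the inducible haem oxygenase, fell from 65.9, 75.7 and 80.9 to 35.7, 39.5 and 40.2 FPKM (−0.93, SE 0.11). The number lower was 8 without the library labelled DKO replicate 3 and 5 without control replicate 1. Of 28 heat shock and chaperone genes, 9 were higher and 8 lower. The mitochondrial chaperone Hspd1 rose from 48.4, 51.3 and 51.2 to 92.2, 114 and 92.7 FPKM (0.96, SE 0.11), while the small heat shock genes Hspb1 (1348, 1451 and 1408 against 693, 559.5 and 612 FPKM, −1.18, SE 0.12) and Hspb8 (379, 349.7 and 302 against 81.1, 103 and 87.5 FPKM, −1.91, SE 0.13) fell. Of 27 wound keratins and stress genes, 12 were higher and 1, Socs3, lower (median 0.53). The lowest log2 fold change of the list, −2.43, was not called. Krt6b, a keratin of wounded epidermis, rose from 1.44, 4.53 and 7.30 to 74.5, 99.4 and 49.2 FPKM (3.91, SE 0.45), and the gap junction gene Gjb2 from 5.69, 6.64 and 5.17 to 40.2, 38.2 and 61.5 FPKM (2.77, SE 0.19). Of 22 antimicrobial and acute phase genes, 12 were higher and 0 lower (median 1.28). Among the 12, Defb4, a beta-defensin, rose from 0.59, 0.28 and 0.28 to 5.16, 4.03 and 5.28 FPKM (2.07, SE 0.16). The lowest log2 fold change of the antimicrobial list, −3.23, was not called. In that list 1 member was lower without control replicate 1 and after centring by GC content or length. The same held with totals taken without keratin and cornified envelope genes.

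Several genes of antigen presentation fell. Of 15 Langerhans cell and MHC class II genes, 5 were lower and 1 higher (median −0.25, and −0.42 without control replicate 1 and −0.44 without the library labelled DKO replicate 3). Cd74, the invariant chain, went from 701, 566 and 786 to 269.9, 232 and 380.2 FPKM (−1.23, SE 0.21, limma adjusted p = 0.00366), H2-Ab1, a class II chain, from 339.6, 242 and 337 to 119.5, 149 and 187 FPKM (−1.01, SE 0.20) and H2-DMa, which helps to load class II, from 29.0, 25.4 and 31.5 to 10.8, 12.4 and 15.2 FPKM (−1.11, SE 0.14). Il34, a keratinocyte cytokine on which Langerhans cells depend, fell from 65.4, 61.4 and 70.0 to 22.9, 21.9 and 20.7 FPKM (−1.54, SE 0.09), and its receptor Csf1r from 14.7, 16.1 and 16.8 to 8.10, 7.47 and 14.3 FPKM (−0.67, SE 0.22). The call of Csf1r (limma adjusted p = 0.0451) was lost without any 1 of the 3 controls and without the library labelled DKO replicate 1 or 2, and with no filter on low values (limma adjusted p up to 0.14). Epcam, which Langerhans cells and follicle cells make, rose from 109, 145 and 95.9 to 169, 204 and 177 FPKM (0.66, SE 0.16). Without the library labelled DKO replicate 2 its log2 fold change was 0.59 and it was not called (limma adjusted p = 0.0602). The summed level of 15 Langerhans markers ran from 1541 to 1964 FPKM in control and from 989 to 1419 FPKM in the libraries labelled DKO. That of 19 macrophage, neutrophil and mast cell markers ran from 117 to 207 and from 232 to 567 FPKM. S100a8, one of the largest rises, held a large part of the second range. It gave 111, 255 and 61.5 of 232, 432 and 567 FPKM in the libraries labelled DKO replicate 1, 2 and 3. In control it gave 9.73, 5.94 and 4.45 of 134, 117 and 207 FPKM. The sums therefore do not show more of these cells. In the second list 2 of 17 genes were higher, S100a8 and the mast cell protease gene Cpa3 (3.82, 2.89 and 7.70 against 7.35, 21.4 and 26.5 FPKM, groups that overlap), and 1, Csf1r, was lower. The call of Cpa3 was lost without control replicate 1 or 2 without the library labelled DKO replicate 2 or 3, with no filter on low values and after centring by GC content (limma adjusted p up to 0.107).

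Of 45 cytokines, chemokines and their receptors, 11 were higher (24.4%) and 8 lower (17.8%), close to the shares of all genes (23.2% and 18.2%). The median was 0.18, and 0.04 without the library labelled DKO replicate 3 and 0.09 without control replicate 1. With totals taken without keratin and cornified envelope genes, 6 were higher and 15 lower, so the balance depends on the scaling. The chemokine Ccl20 rose from 3.42, 4.54 and 3.32 to 14.7, 17.3 and 16.0 FPKM (1.84, SE 0.13), and the receptor Il6ra fell from 50.3, 38.9 and 44.2 to 15.9, 13.4 and 13.9 FPKM (−1.56, SE 0.12). The number higher was 7 without the library labelled DKO replicate 1, and the number lower 5 without replicate 2. Of 40 interferon-stimulated and MHC class I genes, 11 were higher and 5 lower (median 0.17), and 6 were higher without the library labelled DKO replicate 2. With totals taken without keratin and cornified envelope genes, 7 were higher and 8 lower (median 0.0056), and after centring by GC content 7 were higher and 3 lower (median 0.04). Oas1g rose from 0.43, 0.64 and 0.4 to 2.38, 2.63 and 2.43 FPKM (1.23, SE 0.14) and Mx1 from 0.52, 0.64 and 0.72 to 2.21, 2.79 and 2.48 FPKM (1.10, SE 0.14), while Usp18, a brake on the interferon response, fell from 13.6, 8.89 and 9.25 to 2.71, 3.03 and 2.66 FPKM (−1.59, SE 0.17). Of 15 T cell markers 5 were higher (33.3%, against 23.2% of all genes tested) and 1 lower. Without the library labelled DKO replicate 1 or 2, 3 were higher. H60c and Skint1, among the 5, act on lymphocytes and do not themselves mark T cells. The listed markers Trac, Trbc1, Trdc and Tcrg-C1 had no values. H60c, a ligand on skin keratinocytes for a receptor of lymphocytes, rose from 16.1, 23.3 and 19.5 to 68.7, 92.2 and 61.1 FPKM (1.86, SE 0.19), Skint1, which selects epidermal gamma-delta T cells, from 25.4, 18.2 and 19.6 to 38.3, 47.6 and 51.3 FPKM (1.09, SE 0.16) and Cd8a from 0.7, 0.41 and 0.46 to 2.87, 1.60 and 1.83 FPKM (1.01, SE 0.19).

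Markers of tissues other than the keratinocyte were lower for nerve, smooth muscle and the dermal papilla. Of 8 Schwann and Merkel cell markers, 7 were lower and 0 higher (median −1.51). Mbp, a protein of myelin, fell from 49.0, 45.0 and 62.7 to 14.3, 13.99 and 17.3 FPKM (−1.71, SE 0.15). Of 19 smooth muscle and endothelium markers, 9 were lower and 0 higher (median −0.47, from −0.86 without the library labelled DKO replicate 3 to −0.25 without replicate 2). The smooth muscle myosin Myh11 fell from 23.5, 18.3 and 21.8 to 2.37, 2.77 and 3.61 FPKM (−2.51, SE 0.15, limma adjusted p = 0.000148) and calponin (Cnn1) from 8.65, 8.15 and 10.8 to 0.7, 1.23 and 1.11 FPKM (−2.34, SE 0.16). Of 10 dermal papilla markers, 6 were lower and 0 higher, with Fgf7 going from 3.57, 3.68 and 6.93 to 0.76, 0.82 and 2.19 FPKM (−1.35, SE 0.30). Of 9 melanocyte markers 3 were lower, with the factor Mitf going from 9.02, 7.25 and 7.70 to 3.41, 3.22 and 4.39 FPKM (−0.95, SE 0.14). The summed levels in control and in the libraries labelled DKO were 163 to 229 and 36.1 to 65.4 FPKM for Schwann and Merkel markers, and 313 to 413 and 90.8 to 191 FPKM for smooth muscle and endothelium. For the dermal papilla they were 66.3 to 102 and 30.8 to 55.3 FPKM. No defining marker was at 0 in all 6 libraries.

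Few fibroblast markers were called. Of 27 dermal fibroblast and matrix genes, 3 were lower and 0 higher (median −0.36), and 17 were lower without the library labelled DKO replicate 3 (median −0.79). The median was −0.06 without replicate 1 and −0.21 without replicate 2 of the same group, with 1 gene lower in each case. Their summed level was 567 and 631 FPKM in the libraries labelled DKO replicate 1 and 2 and 1644 FPKM in replicate 3, against 1006 to 1617 FPKM in control. Timp3, an inhibitor of metalloproteases, fell from 84.8, 87.8 and 73.5 to 22.0, 20.9 and 41.7 FPKM (−1.57, SE 0.25), again with replicate 3 the highest of its group. Of 9 skeletal muscle markers tested, 0 were called by limma and 0 had an unadjusted p below 0.05, but 2 were called lower without the library labelled DKO replicate 3, and the smallest p was that of Mylpf, a myosin light chain (3.18, 10.3 and 4.48 against 7.36, 7.79 and 21.8 FPKM). Of 6 red blood cell markers 4 were higher and 0 lower, and 2 were higher without the library labelled DKO replicate 1. Hbb-bs, a beta-globin, went from 2.97, 11.9 and 28.4 to 94.7, 47.4 and 102 FPKM (2.77, SE 0.68) and was not called without the library labelled DKO replicate 1 (limma adjusted p = 0.0541). The amounts of dermis, muscle and blood therefore differed between libraries of one group, and their part in the results was not tested.

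The effect of genotype at 6 months was set against that at P36 with an interaction term over all 12 libraries. Of 17665 genes with values in both tables, 13280 had at least 1 FPKM in 3 or more of the 12 libraries and were tested, and 4631 of these (34.9%) differed at a limma adjusted p below 0.05. The 6-month effect was above that at P36 in 1827 genes (13.8%) and below it in 2804 (21.1%). Of these, 3225 were also called at 6 months, and in 2039 of the 3225 the log2 fold change at P36 had the opposite sign. Any size at P36 counted, also very small values such as 0.006 for Hey1 and 0.0087 for Dbp, and no test at P36 was applied. Genes picked for a difference between ages have opposite signs more often, so the 2039 are not a count of reversals. Of 20 basal keratinocyte genes, 15 were below (median 0.52 at P36 and −0.71 at 6 months) and 0 above, with the matrix gene Postn among the 15. Of 30 immediate early genes 16 were below and 1 above (median 0.15 at P36), and of 15 Langerhans and MHC class II genes 10 were below and 1 above (median 1.04 at P36). Of 78 ribosomal protein genes 55 were above and 1 below (median −0.03 at P36).

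Elf5 had a log2 fold change of −1.19 at P36 and 2.42 at 6 months (difference 3.61, SE 0.24, limma adjusted p = 1.3e-05). Its mean at P36 was 34.4 FPKM in control and 14.5 FPKM in the libraries labelled DKO. Gjb2 went from −1.15 to 2.77 (difference 3.93, SE 0.27), with 576 and 262 FPKM at P36. Crot, a carnitine acyltransferase of peroxisomes, went from −0.36 to 1.46 (difference 1.82, SE 0.12). In the other direction, Tgfbi went from 1.44 to −1.67 (difference −3.11, SE 0.23), with 33.3 and 90.2 FPKM at P36. Cd82, a tetraspanin, went from −0.17 to −2.22 (difference −2.05, SE 0.16), and Dab1, an adaptor of reelin signalling, from 0.16 to −2.96 (difference −3.12, SE 0.22). The lists of skeletal muscle, adipocyte and dermal fibroblast genes had medians of 3.78, 2.35 and 1.03 at P36 and of −0.17, −0.07 and −0.36 at 6 months. Leaving out 1 library moved the 6-month medians of the muscle and adipocyte lists between −1.32 and 0.68 and between −0.64 and 0.54, lowest without the library labelled DKO replicate 3 for muscle and without control replicate 1 for adipocyte genes. Their part in the difference between ages was not tested, and the ages were deposited in separate tables.

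**Figure D5:**
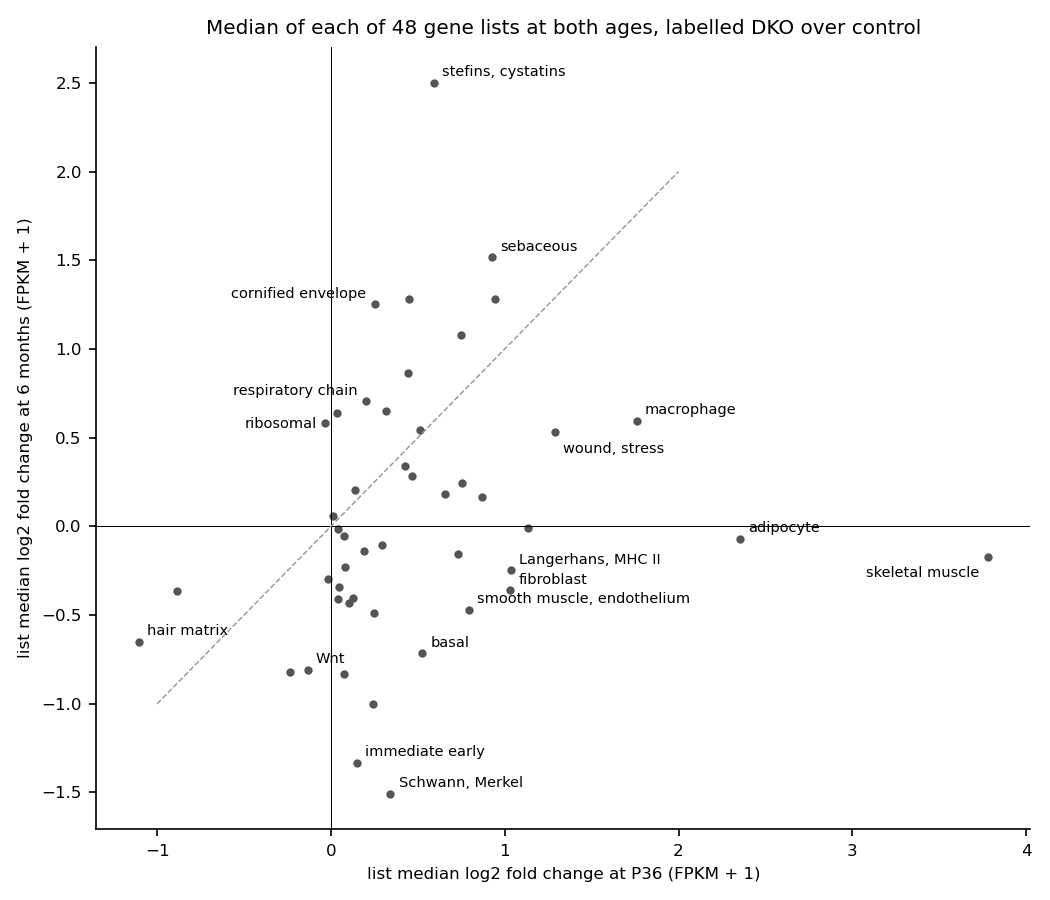
Median log2 fold change (libraries labelled DKO over control) of each of 48 gene lists at P36 (horizontal axis) and at 6 months (vertical axis). Each point is a list, and the dashed line marks equal medians. Immediate early genes (0.15 and −1.33) and basal keratinocyte genes (0.52 and −0.71) lie below the horizontal axis, stefins and cystatins (0.59 and 2.50) far above it, and skeletal muscle markers (3.78 and −0.17) at the far right.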

How the data were processed

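Total RNA of peeled epidermis, freed of ribosomal RNA with RNase H, was sequenced as 50-base single-end reads on a BGISEQ-500, per the labels' protocols. HISAT2 2.1.0 and RSEM 1.2.8 were used, per the submitters' processing notes, although those notes list only human builds (GRCh38, hg38), which leaves the genome behind the tables uncertain. The authors deposited FPKM values with 2 decimals per gene and library, 1 table per age, and the age of a table comes from its name. The same deposited tables hold a p-value, a q-value and the log2 ratio DKO/control for each gene. The test behind them, and whether counting used strand, are not given in the sources used here, so overlapping genes cannot be separated.

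Of 17750 genes with values at 6 months, 17712 Entrez identifiers matched a symbol in RefSeq GRCm38.p6. FPKM values are not counts, depth is unknown, and the spacing of low values did not yield whole reads, so limma 3.58.1 in R 4.3.3 was fitted to log2(FPKM + 1) with a prior that follows mean expression. Genes had at least 1 FPKM in at least 3 of the 6 libraries, Benjamini-Hochberg adjustment ran over all genes tested, and calls used an adjusted p below 0.05. The difference between ages was an interaction term over 12 libraries. Transcript length and GC content are medians over GENCODE coding transcripts (99.5% of genes). The alternatives tried were median-ratio scaling, a pseudocount of 0.1, fitting all genes without a minimum, totals without keratin and cornified envelope genes, the replicate number as a block, and leaving out each library; centring by GC content or length in 20 bins was added after the data were seen.

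Named genes are Vdr and Med1, then in each direction the 15 called genes of greatest change among those with a mean of at least 5 FPKM, a curated symbol and groups that do not overlap, the 8 most abundant called genes per genotype, from each list up to 4 members of lowest adjusted p and up to 2 called against most (or 2 with the smallest p where none passed), and 6 genes per direction for the difference between ages. The text names part of these, with 5 more (Krt1, Krt14, Krtdap, Dcn and Postn) named after their values were seen, and some are not reported here. The genes, the 48 lists and the tests were chosen with earlier results of these data known.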

Additional observations from a re-analysis of the deposited data

Results flagged for a closer look

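In 118 named genes the effect of genotype differed between the ages, by the interaction term of limma over all 12 libraries at an adjusted p below 0.05. Over all genes that share was 34.9%, and some named genes were picked for this difference itself and the others for their change, level or adjusted p at 6 months, so their number is a description. Each value is the log2 fold change at 6 months minus that at P36, on the log2(FPKM + 1) scale. The ages were deposited in separate tables, so a table and an age cannot be told apart. The medians of the fibroblast, skeletal muscle and adipocyte lists also differed between the ages, and their part was not tested.

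Stefins, proteases and inhibitors of the cornified layer had differences above 0 of 4.72 for Stfa2, 3.75 for Tmprss11e, 3.48 for Klk13 and 1.99 for Cstb, and below 0 of −1.62 for Serpina12 and −0.93 for Klk5. Cornified envelope, desmosome, wound and stress genes had differences above 0 of 6.44 for Sprr4, 3.93 for Gjb2, 3.600 for S100a8, 2.82 for Dsc2 and 1.02 for Krt17, and below 0 of −2.77 for Lor, −2.71 for Krt10, −2.65 for Socs3, −2.48 for Krt1, −1.48 for Sbsn, −1.10 for Krtdap, −1.05 for Krt80 and −0.95 for Cdsn. Basal keratinocyte genes had differences below 0 of −2.50 for Lamb3, −2.12 for Krt15, −2.12 for Bcam, −2.06 for Col17a1 and −1.53 for Krt5. Postn, a matrix gene of fibroblasts on the same list, had a difference of −2.54 and was not called at 6 months. Sebaceous gland, upper follicle and lipid genes had differences above 0 of 2.42 for Elovl3, 2.33 for Fabp5, 2.097 for Degs2, 1.97 for Defb6 and 0.62 for Hsd17b7, and below 0 of −1.91 for Dgat2, −1.23 for Elovl1 and −0.85 for Srebf2. Follicle stem cell, outer root sheath and hair matrix genes had differences above 0 of 3.54 for Padi4, and below 0 of −3.82 for Krt75, −3.26 for Fgf18, −3.00 for Lhx2 and −2.29 for Wnt7b. Wnt, Bmp, Tgfb, Notch and Hedgehog pathway genes had differences above 0 of 1.197 for Porcn and 0.89 for Inhbb, and below 0 of −3.11 for Tgfbi, −1.61 for Grem1, −1.42 for Bmp2, −1.34 for Cdon, −1.26 for Nkd2, −1.07 for Hey1, −1.02 for Wnt6 and −0.99 for Disp1. Retinoid, vitamin D and other nuclear receptor genes had differences above 0 of 2.82 for Lrat, 1.12 for Rbp2, 0.88 for Crabp2 and 0.57 for Snw1, and below 0 of −4.41 for Nr4a1, −2.82 for Cyp26b1, −1.63 for Nr1d1, −1.50 for Rxrg, −1.15 for Thra, −1.03 for Rxra, −0.88 for Nr3c1 and −0.75 for Rarg.

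Immediate early genes, keratinocyte transcription factors and clock genes had differences above 0 of 3.61 for Elf5, 1.95 for Ehf and 1.33 for Gadd45a, and below 0 of −4.80 for Fosb, −4.07 for Fos, −3.67 for Dusp1, −3.47 for Ccn2, −1.67 for Jun, −1.53 for Tfap2b, −1.35 for Dbp, −1.29 for Jund, −1.14 for Klf5 and −1.06 for Hlf. Ribosomal, respiratory and proteasome genes had differences above 0 of 0.94 for Rps26, 0.93 for Psmb3, 0.90 for Atp5j, 0.90 for Rpl10a and 0.79 for Cox7b. Nrf2 target, chaperone and antimicrobial genes had differences above 0 of 1.45 for Defb4, 0.93 for Hspd1, 0.80 for Txn1 and 0.60 for Prdx1, and below 0 of −1.75 for Hspb8 and −1.22 for Hspb1. Junction, ion transport, EGF family, cell cycle and Mediator genes had differences above 0 of 3.82 for Atp12a, 1.72 for Trpv3, 1.58 for Cdkn2a, 1.55 for Calml3 and 1.42 for Panx3, and below 0 of −3.30 for Cldn3, −1.73 for Btc and −1.58 for Cgn. Cytokine, interferon and Ifitm genes had differences above 0 of 2.22 for Ccl20, and below 0 of −5.46 for Ifitm6, −4.08 for Il31ra, −2.33 for Il6ra, −2.16 for Usp18 and −2.15 for Il34. Genes on the immune cell lists had differences above 0 of 0.99 for Cd8a and 0.57 for Epcam. Differences below 0 were −2.53 for Cd74, −2.36 for H2-Ab1, −2.19 for Csf1r, −2.15 for H2-DMa and −0.78 for H60c. Markers of melanocytes and tissues below the epidermis had differences below 0 of −3.06 for Myh11, −2.62 for Cnn1, −2.32 for Mbp and −1.07 for Timp3. The other named genes had differences above 0 of 3.91 for Chil1, 2.28 for Aox4 and 1.82 for Crot, and below 0 of −4.63 for Wfdc3, −3.12 for Dab1, −2.98 for Gpha2, −2.67 for Krt24, −2.62 for Tgm7 and −2.05 for Cd82.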

How the results depend on the processing

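The counts of called genes at 6 months stayed within 1.5 times of 2918 higher and 2289 lower under every alternative run. Leaving out 1 library gave 2193 to 2664 higher and 1612 to 2501 lower. The split moved with scaling: higher genes made up 56.0% of calls, 47.5% with median-ratio scaling (2457 higher, 2719 lower), 38.3% with totals taken without keratin and cornified envelope genes, 50.9% after centring by GC content, 49.3% by length, and 50.0% without the library labelled DKO replicate 3. The median of all genes moved from 0.04 to −0.11 with the reduced totals, and changes there are relative to that shift. With the replicate number as a block, 2637 genes were higher and 2225 lower, and for the difference between ages 1566 and 2657. The labels do not say that equal numbers mark a shared litter or day. Correlations of the deviations from the group means were −0.06, 0.03 and 0.18 for the 3 pairs of equal number. Control replicate 2 correlated best with the library labelled DKO replicate 1 (0.23). So few libraries cannot show whether those of equal number share more than a number. Under the block Krt1 lost its call (limma adjusted p = 0.0551) and Dcn gained one (0.0364), and no other named gene changed its call. Of 157 named genes, 7 lost their call without the library labelled DKO replicate 2, the most of any setting, and none changed sign. Of 96 list counts, 19 moved by over 1.5 times with the reduced totals and 19 without the library labelled DKO replicate 2. The median of 19 of the 48 lists moved by over 1.5 times or changed sign with the reduced totals, of 15 without the library labelled DKO replicate 3 and of 13 with no filter on low values. With no filter the medians were 0.21 for retinoid genes, 0.80 for antimicrobial genes, −0.70 for Schwann and Merkel markers and −0.23 for Notch genes, over lists with more genes of low level. For the difference between ages, leaving out 1 of 12 libraries gave 1343 to 1873 genes above and 2225 to 3187 below, against 1827 and 2804. Depth is unknown, so precision at low FPKM cannot be stated.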

Other observations

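Genes of cell contacts and transport moved both ways. Of 26 claudins, occludin and connexin genes and their partners, 10 were lower and 6 higher at 6 months (median −0.30). Cgn, a tight junction adaptor, fell from 60.7, 59.6 and 58.9 to 22.2, 20.7 and 17.7 FPKM (−1.52, SE 0.10), and the pannexin Panx3 rose from 5.43, 4.77 and 6.51 to 23.2, 22.9 and 14.2 FPKM (1.66, SE 0.20). Of 38 genes of calcium signalling, ion channels and proton transport, 11 were lower and 7 higher (median −0.14), with 7 lower without control replicate 2 or without the library labelled DKO replicate 2. Atp12a, a proton pump, rose from 8.66, 9.24 and 8.64 to 33.1, 25.4 and 19.9 FPKM (1.43, SE 0.18), the heat-gated channel Trpv3 from 5.81, 5.98 and 4.48 to 11.9, 11.8 and 14.6 FPKM (1.10, SE 0.14) and Calml3, a calmodulin relative of epithelium, from 160.3, 165 and 142 to 363, 508 and 414 FPKM (1.44, SE 0.14).

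Of 15 genes of the EGF receptor family and its ligands, 2 were higher and 2 lower. Btc, the ligand betacellulin, fell from 59.3, 76.3 and 84.3 to 17.7, 25.2 and 30.2 FPKM (−1.57, SE 0.21), and Nrg4, a neuregulin, rose from 6.600, 3.84 and 6.70 to 19.9, 19.5 and 12.6 FPKM (1.46, SE 0.24). Without control replicate 1, 6 were higher, and without control replicate 2, 4 were lower. Of 32 Mediator subunit genes, 7 were higher and 3 lower (median 0.06, from 0.01 without the library labelled DKO replicate 2 to 0.10 without replicate 3), and the number higher was 3 or 4 without any 1 library other than control replicate 1, 4 with median-ratio scaling or the replicate block, and 3 with totals taken without keratin and cornified envelope genes. Med21 rose from 23.4, 23.8 and 26.0 to 36.1, 41.2 and 41.8 FPKM (0.68, SE 0.10). Of 46 cell cycle genes, 9 were higher and 5 lower (median 0.21). Without control replicate 1, 7 were higher and 8 lower (median −0.0032), and the median was 0.05 without the library labelled DKO replicate 3. The number lower was 8, 2 and 1 without control replicate 1, 2 and 3, and 3 without the library labelled DKO replicate 2. Cdkn2a, which codes for the cell cycle inhibitors p16 and p19 and accumulates in ageing tissue, had 0.23, 0.13 and 0.13 FPKM in control and 5.51, 2.26 and 4.33 FPKM in the libraries labelled DKO (2.06, SE 0.25, limma adjusted p = 0.00131).

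Of the 12594 genes, 11171 (88.7%) had a q-value below 0.05 in the authors' deposited table, 6004 of them higher and 5167 lower. All 5207 genes called here were among them with the same sign in the authors' deposited table. Of the 5964 genes with such a q-value in the authors' deposited table that were not called here, 4133 had genotype groups that overlapped. In 8625 genes the q-value in the authors' deposited table was below the p-value.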
